A study of Oryza sativa with 8 samples.

Results

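The genes described here run or carry out the plant cell cycle: cyclins, cyclin-dependent kinases (CDKs), the MCM, RFC, PCNA and ORC factors of DNA replication, and histone H2B. They were chosen by name, from the symbols of the array annotation and the symbols and synonyms of the RefSeq rice genes. The matching rule itself used no signal, although the gene families were picked with earlier results of these data known. In all, 72 genes were found by name, and 59 of them had a probe set (a group of short probes that reads 1 transcript) of their own. Of these 59, 57 were bright enough to test, among 16166 genes tested of 17905 with a probe set. The helicase gene MCM8 and the cyclin CYCF2-2 were too dim to test, with signals of at most 10.8 and 2.2 on any array. The other 13 genes had no probe set listed for that gene alone and were not analysed here: CYCA3-1, CYCB1-5, CYCD2-1, CycT1;1, CDKB1-1, CDKC-2, CDKF-2, ORC6, H2B.2, H2B.3, H2B.4, H2B.9 and H2B1. No gene was found under a histone H2A name.

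The 8 arrays hold root RNA of IR64 rice, an indica cultivar, from pot-grown greenhouse plants. Transgenic plants (T) carried 35S::OsPSTOL1, a protein kinase gene tied to tolerance of phosphorus (P) deficiency, behind a constitutive viral promoter, and the non-transgenic plants (NT) were null segregants. Both genotypes were sampled at heading in P-deficient soil and at mid-tillering in P-fertilised soil, with 2 biological replicates in each of the 4 groups. Soil and growth stage therefore changed together and cannot be told apart, and every soil difference below joins them. The labels used here give no number of transgenic lines or of pooled plants, and no probe set was named as PSTOL1 in the annotation, so the transgene was not checked.

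A plant cell is driven from one phase of division to the next by CDKs, each switched on by a cyclin that is made for that phase. D-type cyclins with CDKA start the cycle, B-type cyclins with the plant-specific CDKB kinases carry cells through mitosis, and A-type cyclins act in between. Before DNA is copied, the origin recognition complex (ORC) loads the MCM2 to MCM7 helicase, and RFC then loads the ring-shaped clamp PCNA that holds DNA polymerase on its template. In roots these genes are known mainly from dividing cells at the tip and in lateral root primordia, so whole-root RNA averages few dividing cells with many that have stopped.

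Signals are array intensities on a linear scale brought to a common scale by the authors. Pairs of signals give replicate 1 first, then replicate 2. Differences are on the log2(intensity + 32) scale, which understates the change of dim genes, and were tested with limma over all probe sets kept, with Benjamini-Hochberg adjusted p under 0.05 as the threshold. Summed intensity per array ran from 8060018 to 8802152, and replicates correlated at 0.964 to 0.984 across probe sets. RNA integrity set the T arrays from P-deficient soil apart. Their ratio of the 3-prime to the 5-prime probe set of GAPDH, a glycolytic enzyme, was 198 and 3.05, against 1.15 and 1.21 in NT of that soil and 1.55 to 2.16 in P-fertilised soil. The same ratio for actin was 272 and 20.3 on these T arrays, against 4.85 to 8.61 on all others, so both T arrays stood apart. In bulk roots fewer dividing cells and less RNA per cell cannot be told apart.

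Between the soils, the cell cycle genes were lower in P-deficient soil far more often than higher. Of the 57 tested, 32 (56.1%) were lower in P-deficient soil and 7 (12.3%) were higher, over both genotypes. Over all 16166 genes 30.4% were lower and 27.4% higher, so lower members were more frequent and higher members less frequent than in the background. The median difference was -0.70 over the members and -0.01 over all genes, and the middle of the distribution ran from -1.47 to 0.09 for members (25th to 75th percentile) and from -0.52 to 0.42 for all genes. In 38 of the 57 members all 4 arrays of one soil lay above all 4 of the other, which 56.0% of all genes also did. When T replicate 2 in P-fertilised soil was left out, fewer members were called in each direction, and lower ones still outnumbered higher ones. The shares of all genes were not counted for that fit.

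**Figure D1:**
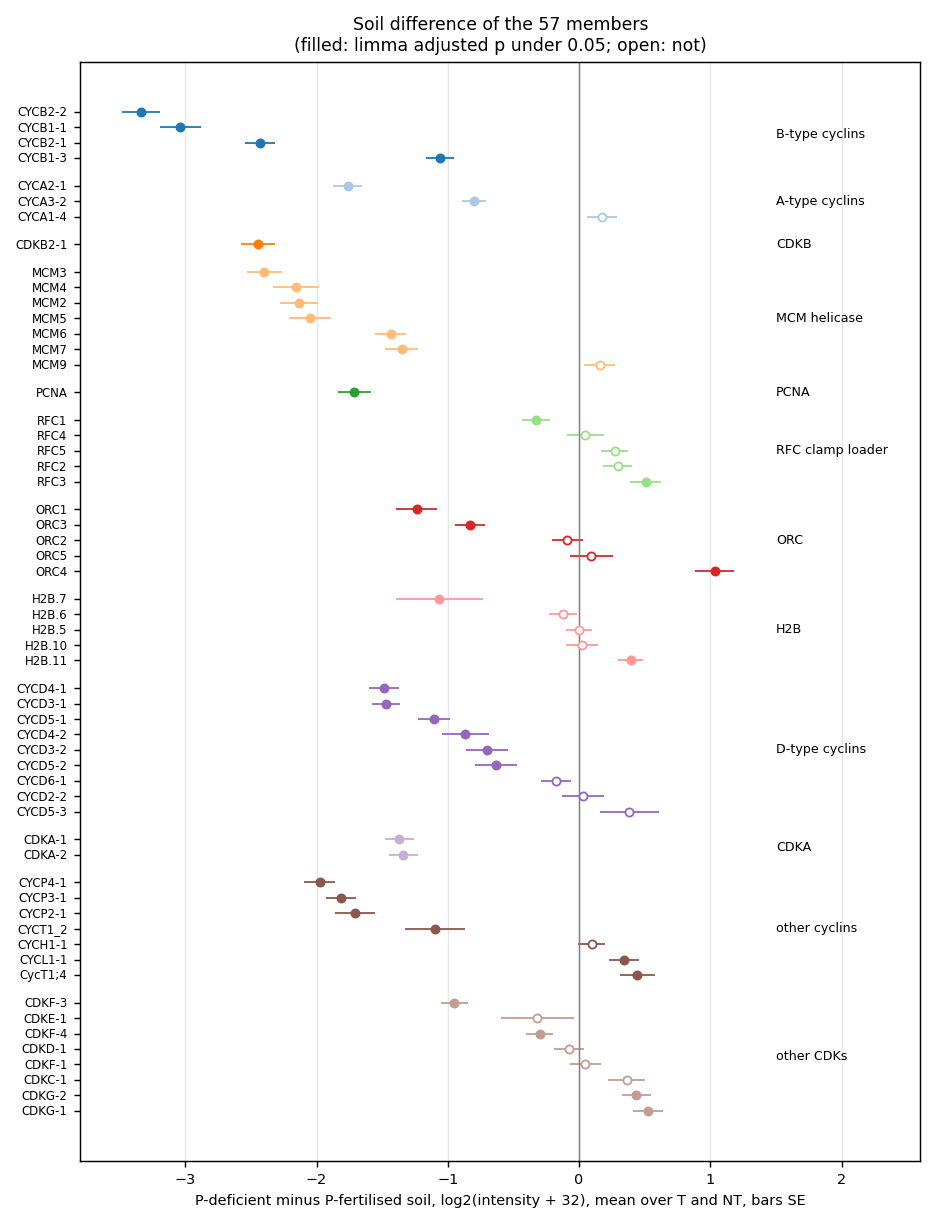
Soil difference of each of the 57 tested members, as P-deficient minus P-fertilised soil in log2(intensity + 32) averaged over T and NT, with bars of 1 SE. Filled points passed the limma threshold and open points did not. B-type cyclins, CDKB2-1, PCNA and MCM2 to MCM7 lie at -1.06 or below, while RFC and H2B genes other than H2B.7 lie between -0.33 and 0.51.

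The mitotic genes differed most. All 4 B-type cyclins tested were lower in P-deficient soil, against 30.4% of all genes, with a median difference of -2.73. CYCB2-2 read 8.8 and 1.8 (T) and 1.7 and 0.9 (NT) in P-deficient soil, against 293.2 and 363.6 (T) and 265.4 and 384.3 (NT) in P-fertilised soil. Its signal was thus close to the bottom of the scale on every array of P-deficient soil and far above it on every array of P-fertilised soil. The difference was -3.34 ± 0.15 (SE, adjusted p = 9.83e-07), and a second CYCB2-2 probe set gave -2.09 (adjusted p = 4.37e-06).

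CYCB1-1, whose protein is a standard marker of cells entering mitosis, behaved likewise. In P-deficient soil it read 14.5 and 9.4 (T) and 16.9 and 15.5 (NT), but in P-fertilised soil 352.1 and 399.4 (T) and 247.8 and 405.6 (NT). The soils did not overlap, and the difference was -3.04 ± 0.16 (adjusted p = 2.14e-06). CYCB2-1 read 17.7 to 29.3 across the 4 arrays of P-deficient soil and 251.9 to 295.7 across the 4 of P-fertilised soil, a difference of -2.43 ± 0.11 (adjusted p = 1.40e-06). The dimmer CYCB1-3 lay at 1.7 to 8.4 and at 33.2 to 57.3 (-1.06 ± 0.11, adjusted p = 8.08e-05).

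CDKB2-1, the mitotic kinase partner of such cyclins, read 19.4 and 20.8 (T) and 23.2 and 10.4 (NT) in P-deficient soil. In P-fertilised soil the same probe set read 236.8 and 263.7 (T) and 207.2 and 262.9 (NT). Here too no array of one soil reached the other, and the difference was -2.45 ± 0.13 (adjusted p = 2.67e-06). Among A-type cyclins, which act in S phase and the entry into mitosis, CYCA2-1 was lower (-1.76 ± 0.11, adjusted p = 6.14e-06), at 23.1 to 30.1 against 142.9 to 183.0. CYCA3-2 was lower as well (-0.80 ± 0.09, adjusted p = 0.000178), at 19.8 to 27.8 against 56.5 to 77.1. The third, CYCA1-4, overlapped between soils at 51.4 to 73.8 and 46.9 to 58.3 and did not pass (0.18 ± 0.11, adjusted p = 0.233), although quantile normalization called it higher (0.33, adjusted p = 0.0319).

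**Figure D2:**
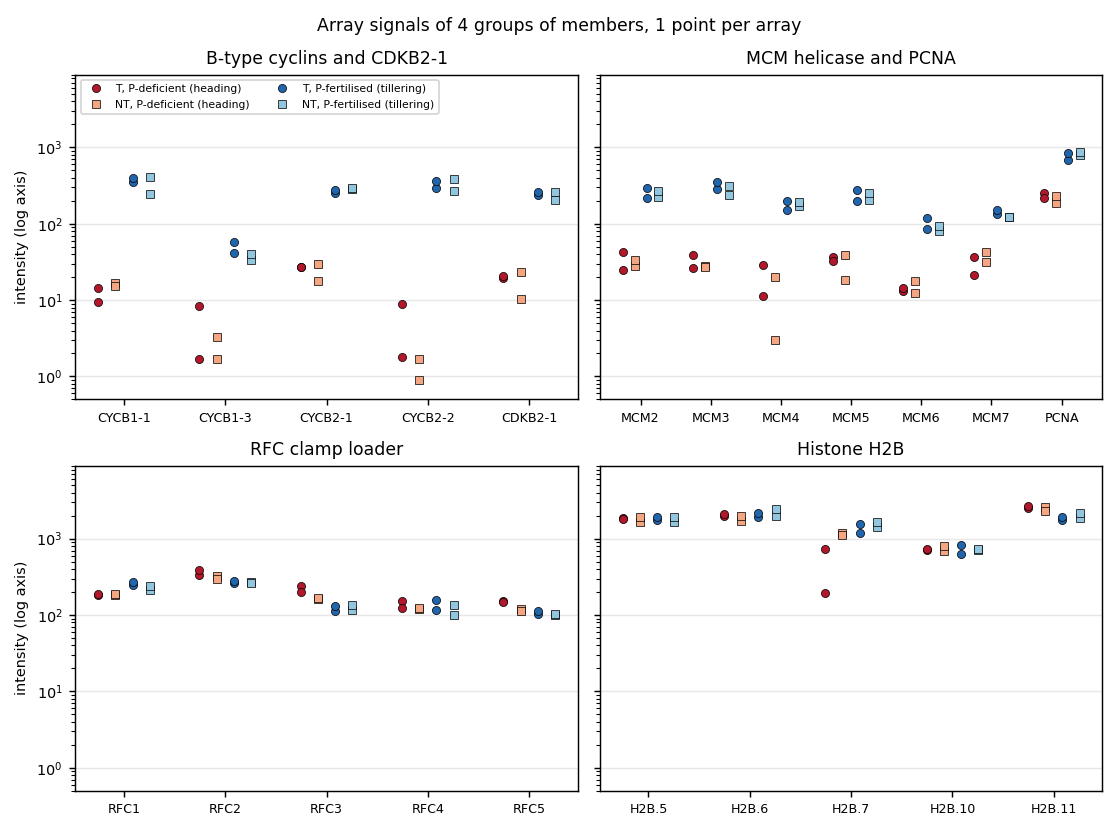
Array intensity (log axis) of the B-type cyclins and CDKB2-1, the MCM2 to MCM7 helicase and PCNA, the RFC clamp loader and histone H2B, with 1 point per array and the 4 groups by colour and shape. In the top panels the soils separate for every gene, for example at 187.3 to 253.9 against 675.7 to 858.1 for PCNA. In the lower panels the soils lie closer together, apart from H2B.7, which T arrays from P-deficient soil read at 192.4 and 741. Even so, RFC1, RFC2, RFC3, RFC5 and H2B.11 do not overlap between soils.

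The genes that start the cycle were lower too, by less. Of 11 D-type cyclins and CDKA kinases tested, 8 (72.7%) were lower in P-deficient soil and 0 higher, against 30.4% and 27.4% of all genes. Their median difference was -0.87. CDKA-1, which binds D- and A-type cyclins, read 268.6 and 232.6 (T) and 202.6 and 228.2 (NT) in P-deficient soil. In P-fertilised soil it read 666.3 and 716.5 (T) and 589.7 and 633.2 (NT). The soils did not overlap, and the mean signal in P-fertilised soil was 2.76 times that in P-deficient soil in T and 2.84 times in NT (difference -1.37 ± 0.11, adjusted p = 2.11e-05). A second, dim CDKA-1 probe set, at 1.3 to 23.5 over all arrays, did not pass (-0.10, adjusted p = 0.579). CDKA-2 was lower on all 3 of its probe sets (-1.34, -0.87 and -1.15). The brighter CDKA probe sets carry name endings that mark probes shared by more than 1 transcript, so the CDKA genes may not be read apart. The first ORC4 probe set and those used for H2B.7 and MCM9 carry such endings too. So do the second CYCB2-2 probe set and a further probe set of CDKG-2.

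D-type cyclins relay growth signals, among them sugar and hormones, to the cycle. CYCD4-1 read 49.2 and 44.5 (T) and 43.3 and 57.3 (NT) in P-deficient soil, against 168 and 165.4 (T) and 207.4 and 242.2 (NT) in P-fertilised soil. CYCD3-1 read 19.8 to 30.2 in P-deficient soil and 116.7 to 129.4 in P-fertilised soil. Neither gene overlapped between soils, and their differences were -1.49 ± 0.11 (adjusted p = 1.68e-05) and -1.47 ± 0.11 (adjusted p = 1.26e-05). CYCD5-1 was lower (-1.10 ± 0.12, adjusted p = 0.000126), with 74 to 103.9 against 212.7 to 258.7. Also lower were CYCD4-2 (-0.87), CYCD3-2 (-0.70) and CYCD5-2 (-0.63, and -0.57 on a second probe set), although CYCD3-2 overlapped between soils because NT replicate 2 of P-deficient soil read 19.0 and NT replicate 1 of P-fertilised soil 16.2. CYCD2-2 (0.03), CYCD6-1 (-0.17) and CYCD5-3 (0.38) did not pass and overlapped, though CYCD5-3 passed when NT replicate 2 in P-deficient soil, at 77.7, was left out.

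The replication genes did not move as one. Of 18 tested, 10 (55.6%) were lower and 2 (11.1%) higher in P-deficient soil, against 30.4% and 27.4% of all genes. The 10 held all 6 subunits of the MCM2 to MCM7 ring and PCNA. MCM3 read 39.2 and 26.3 (T) and 28.3 and 27.2 (NT) in P-deficient soil, and 287.1 and 355.3 (T) and 239.5 and 308.6 (NT) in P-fertilised soil, with no overlap (-2.40 ± 0.13, adjusted p = 3.13e-06). MCM2 lay at 25 to 43 against 215.5 to 289.7 (-2.13 ± 0.15, adjusted p = 8.71e-06) and MCM5 at 18.3 to 39.2 against 197.1 to 275.6 (-2.05 ± 0.16, adjusted p = 1.78e-05). MCM4 (-2.16), MCM6 (-1.44) and MCM7 (-1.35) were lower as well, again with no overlap between soils. MCM9, a related helicase that is not part of the ring, was dim at 12.1 to 30.8 and did not pass (0.16 ± 0.12, adjusted p = 0.317).

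PCNA, the sliding clamp, read 253.9 and 216.2 (T) and 187.3 and 227.5 (NT) in P-deficient soil. Its signals in P-fertilised soil were 675.7 and 856.8 (T) and 796.7 and 858.1 (NT). The soils were apart on all 8 arrays, with a mean signal in P-fertilised soil 3.26 times that in P-deficient soil in T and 3.99 times in NT (difference -1.71 ± 0.13, adjusted p = 1.44e-05).

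The clamp loader RFC, which places PCNA on DNA, showed small differences in both directions, with a median of 0.27. For 4 of the 5 RFC genes tested the soils did not overlap, as for 56.0% of all genes. RFC3 read 242.6 and 198.2 (T) and 160.8 and 166.4 (NT) in P-deficient soil, against 113.4 and 131.1 (T) and 117.1 and 135.6 (NT) in P-fertilised soil. It was the 1 RFC subunit called higher (0.51 ± 0.12, adjusted p = 0.00751). RFC1, the large subunit, was the 1 called lower, at 182.6 to 189.1 against 212.7 to 269.2 (-0.33 ± 0.11, adjusted p = 0.0333). RFC1 missed the threshold in 9 of 17 other settings, among them the fits without either T array of P-deficient soil or any 1 array of P-fertilised soil, with adjusted p up to 0.126. RFC2 (0.30 ± 0.11, adjusted p = 0.0563), RFC5 (0.27, adjusted p = 0.0583) and RFC4 (0.05, adjusted p = 0.805) did not pass. RFC2 passed in 6 of the 17, among them the fits that leave out T replicate 1 or NT replicate 2 in P-deficient soil.

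ORC genes, which mark where replication can start, also split. ORC1, the largest subunit, read 13.9 and 0.8 (T) and 14.9 and 1.6 (NT) in P-deficient soil, against 54.4 and 73.9 (T) and 55.2 and 59.6 (NT) in P-fertilised soil. ORC3 lay at 5.3 to 15.5 against 26.1 to 48.1. Neither overlapped between soils, and they differed by -1.24 ± 0.15 (adjusted p = 0.000267) and -0.83 ± 0.11 (adjusted p = 0.000461).

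ORC4 went the other way. It read 141.3 and 180.3 (T) and 153.8 and 99.2 (NT) in P-deficient soil, and 54 and 55.9 (T) and 44.2 and 57 (NT) in P-fertilised soil. Every array of P-deficient soil was higher than every array of P-fertilised soil, and the difference of 1.03 ± 0.15 (adjusted p = 0.000535) made it the 1 member more than 1 log2 unit higher. A second ORC4 probe set gave 0.73 (adjusted p = 0.00114). ORC2 (-0.09) and ORC5 (0.09) did not pass.

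Histone H2B, which packs new DNA and is also made outside S phase in some variants, differed little between soils. Of 5 H2B genes tested, 1 (20%) was lower and 1 (20%) higher, against 30.4% and 27.4% of all genes. The median difference was -0.00. H2B.5 read 1843.6 and 1829.6 (T) and 1640.5 and 1916.9 (NT) in P-deficient soil, against 1736 and 1911 (T) and 1675.7 and 1922.8 (NT) in P-fertilised soil. The soils overlapped almost fully for H2B.5 (-0.00 ± 0.10, adjusted p = 0.985), as they did for H2B.10 (0.02, adjusted p = 0.901). For H2B.6 they overlapped in part, at 1722.2 to 2083.9 against 1932.4 to 2440.3 (-0.12 ± 0.11, adjusted p = 0.383). H2B.11 was higher in P-deficient soil, at 2311.5 to 2666.8 against 1735.2 to 2141.9 (0.39 ± 0.09, adjusted p = 0.00921), and did not pass after quantile normalization (0.23, adjusted p = 0.0807), which instead called H2B.6 lower (-0.29, adjusted p = 0.028). H2B genes are near copies of each other, and H2B.10, H2B.7, H2B.6 and H2B.5 follow each other on chromosome 1 with at most 5 gene steps between neighbours, so their probe sets may share targets.

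H2B.7 was called lower (-1.07 ± 0.33, adjusted p = 0.0281), and the value rested on T plants in P-deficient soil. It read 192.4 and 741 there, 1202.3 and 1128.3 in NT of that soil, and 1193.8 and 1553.8 (T) and 1431.2 and 1647 (NT) in P-fertilised soil. The lowest signal was on the array with the GAPDH ratio of 198. Without that array the difference was -0.62 (adjusted p = 0.00842) and without T replicate 2 it was -1.51 (adjusted p = 0.000148). The call was lost when any 1 of the 4 NT arrays or T replicate 2 in P-fertilised soil was left out, and with no filter on dim probe sets (adjusted p = 0.0598 to 0.087). The part of RNA integrity in the H2B.7 signal was not tested beyond a fit with the GAPDH ratio as a covariate, which gave -0.60.

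**Figure D3:**
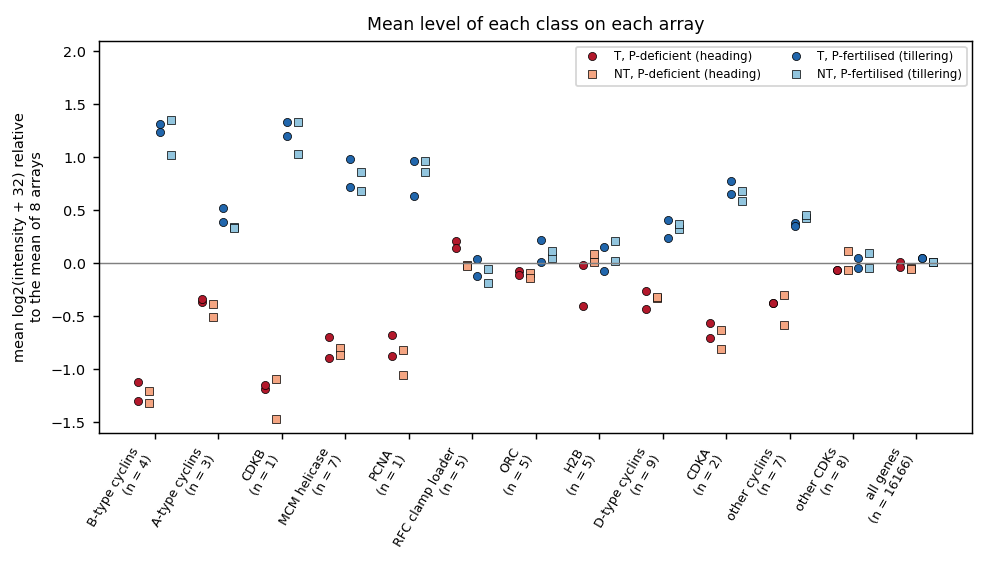
Mean log2(intensity + 32) of each class of members on each array, relative to the mean over the 8 arrays, with all 16166 genes on the right. Points are single arrays. B-type cyclins lie at -1.32 to -1.12 on the arrays of P-deficient soil and at 1.02 to 1.35 on those of P-fertilised soil, while RFC lies at -0.19 to 0.21 and H2B at -0.41 to 0.21, the lowest on T replicate 1 of P-deficient soil.

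The remaining cyclins and CDKs work mostly in transcription, splicing or kinase activation, and 6 of 15 tested (40%) were lower and 4 (26.7%) higher, with a median of -0.07. These shares lay close to those of all genes, at 30.4% and 27.4%. The 3 P-type cyclins fell together. These proteins resemble Pho80, the cyclin of phosphate signalling in budding yeast. CYCP4-1 read 95.9 and 75.1 (T) and 86.8 and 96.9 (NT) in P-deficient soil, against 390.6 and 375.4 (T) and 467.3 and 554 (NT) in P-fertilised soil. CYCP3-1 lay at 65.5 to 89.4 against 333.5 to 384.3, and CYCP2-1 at 109.2 to 190.1 against 465 to 653.4. None of the P-type cyclins overlapped between soils, and the differences were -1.98 ± 0.12 (adjusted p = 4.54e-06), -1.81 ± 0.12 (adjusted p = 6.14e-06) and -1.71 ± 0.15 (adjusted p = 3.61e-05).

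T-type cyclins, which with CDKC phosphorylate RNA polymerase II, went in opposite directions. CYCT1_2 was lower (-1.10 ± 0.23, adjusted p = 0.00462) and CycT1;4 higher (0.44 ± 0.13, adjusted p = 0.0215). CycT1;4 read 971.1 and 919.8 (T) and 908.6 and 634.1 (NT) in P-deficient soil and 576.8 to 643.1 in P-fertilised soil, overlapping through NT replicate 2. Its call was lost on leaving out T replicate 1 in P-deficient soil or any 1 array of P-fertilised soil (adjusted p = 0.0532 to 0.077). CDKC-1 (0.36, adjusted p = 0.0634, passing once T replicate 1 in P-deficient soil was left out) and CYCH1-1, a partner of the activating kinase CDKD (0.10), did not pass.

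CDKG kinases and L-type cyclins, which act in splicing in Arabidopsis, were higher in P-deficient soil. CDKG-1 read 339.8 and 294.6 (T) and 281.1 and 318.4 (NT) there, against 220.7 and 187.2 (T) and 211.3 and 197.7 (NT) in P-fertilised soil, with no overlap (0.53 ± 0.12, adjusted p = 0.0058). A second, dim CDKG-1 probe set, at 4.4 to 21.1 over all arrays, overlapped between soils and did not pass (0.20, adjusted p = 0.141). CDKG-2 was higher on all 3 of its probe sets (0.44 on each), and the first missed the threshold once T replicate 2 in P-fertilised soil was left out (adjusted p = 0.0515). CYCL1-1 was higher by 0.34 ± 0.11 (adjusted p = 0.0347), a call that 8 of 17 other settings lost, among them those without T replicate 1 or NT replicate 1 in P-deficient soil or any 1 array of P-fertilised soil. Among the rest, CDKF-3 was lower at 175 to 195.9 against 376.5 to 406.5 (-0.95 ± 0.10, adjusted p = 0.000115) and so was CDKF-4 (-0.30, adjusted p = 0.043), whose call was lost in 9 of 17 other settings, among them the fits without any 1 array other than NT replicate 2 in P-deficient soil. CDKD-1 (-0.07), CDKF-1 (0.05) and CDKE-1, the kinase of the Mediator complex (-0.32 ± 0.28), did not pass.

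The soil difference within each genotype gave similar lists. In NT 28 of 57 members were lower in P-deficient soil and 1 was higher, against 23.0% and 18.9% of all genes. In T 29 were lower and 6 higher, against 24.2% and 21.4% of all genes. The NT and T differences come from separate arrays, but their tests shared an estimate of the spread of each gene, drawn from all arrays. The calls in NT and in T are therefore not independent. Lower in both were 27 members, which is 96.4% of the NT list and 93.1% of the T list. No member was called in opposite directions. Across the 57 members, which share the same arrays, the differences in T and NT correlated at r = 0.959 as a description. Neither the overlap of the lists nor r was computed over all genes, so neither is shown to be particular to the members.

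The median difference over members was -0.44 in NT and -0.81 in T. In NT it was -0.67 without replicate 1 and -0.29 without replicate 2 of P-fertilised soil. The NT arrays, with GAPDH ratios of 1.15 to 1.94, gave B-type cyclins a median of -2.70 and MCM genes -2.11, next to -2.77 and -1.99 in T. The 6 higher calls in T became 1 when T replicate 1 of either soil was left out and 2 when T replicate 2 in P-fertilised soil was. The 1 higher call in NT was ORC4, and it was lost when NT replicate 1 in P-fertilised soil was left out.

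The transgene comparison asked whether OsPSTOL1 changes these genes, and none passed. Over both soils 0 of 57 members were called between T and NT in limma, against 0.0124% of all genes, and 3 had an unadjusted p under 0.05, as did 1155 of 16166 genes. In P-deficient soil 0 were called, against 0.0247% of all genes, and 3 had an unadjusted p under 0.05, as did 1596 of 16166 genes. In P-fertilised soil 0 were called, against 0.00619%, and 0 had such a p, as did 316 of 16166 genes. The T minus NT differences ran from -1.52 to 0.46 in P-deficient soil and from -0.38 to 0.25 in P-fertilised soil. For B-type cyclins the median was 0.10 and 0.12, and for MCM genes 0.06 and 0.04, far smaller than their soil differences.

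**Figure D4:**
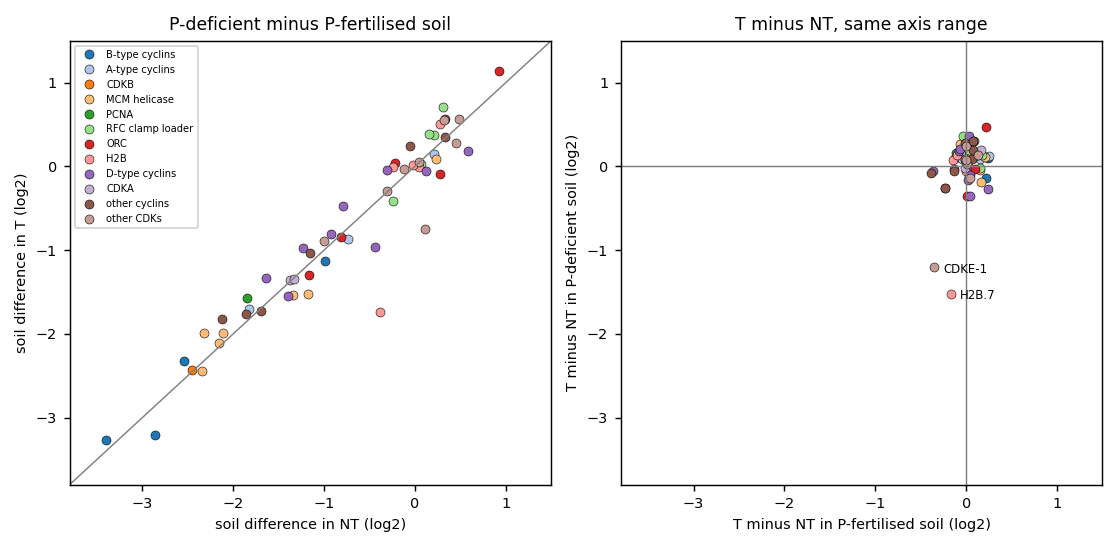
Left, soil difference (P-deficient minus P-fertilised, log2) of each of the 57 members in NT (x axis) and in T (y axis), with a line where they would be equal. Right, T minus NT in P-fertilised soil (x axis) and in P-deficient soil (y axis) on the same axis range. Soil differences in T and NT correlated at r = 0.959, and T minus NT stays close to 0 apart from H2B.7 at -1.52 and CDKE-1 at -1.20 in P-deficient soil.

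The members with the smallest p between genotypes were H2B.7, CDKE-1 and ORC2. In P-deficient soil H2B.7 differed by -1.52 ± 0.47 (adjusted p = 0.266), with the array values given above. Without T replicate 2 of that soil, which leaves the array with the GAPDH ratio of 198 as the only T array and assumes it to vary like the other groups, H2B.7 passed (-2.41, adjusted p = 0.00381). Without T replicate 1 it did not (-0.63, adjusted p = 0.631). CDKE-1 read 230 and 259.7 (T) and 417.3 and 871.7 (NT) in P-deficient soil (-1.20 ± 0.39, adjusted p = 0.279), without overlap but with NT replicates far apart. ORC2 read 175.1 and 204.2 (T) and 132.4 and 124.4 (NT) (0.46 ± 0.17, adjusted p = 0.307). In P-fertilised soil CYCD4-1 (-0.37), CYCP4-1 (-0.38) and CYCA3-2 (0.25) had the smallest p, each with an adjusted p of 1.

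The interaction tests whether the soil difference depends on genotype. It was called for 0 of 57 members and 0.0% of all genes in limma, and 0 members had an unadjusted p under 0.05, as did 646 of 16166 genes. The smallest p belonged to H2B.7 (-1.35 ± 0.66, adjusted p = 0.833), RFC3 (0.40 ± 0.23, adjusted p = 0.864) and CYCD3-2 (-0.52 ± 0.32, adjusted p = 0.87). H2B.7 passed without T replicate 2 of P-deficient soil (-2.25, adjusted p = 0.0314).

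Other genes of the cycle were taken from a list of names outside the members. Of 19 tested, 8 (42.1%) were lower and 3 (15.8%) higher in P-deficient soil, against 30.4% and 27.4% of all genes, with a median of -0.20. RPA coats single-stranded DNA at the fork: RPA32 lay at 18.9 to 26.9 against 163.5 to 255.3 (-2.10, adjusted p = 1.06e-05) and RPA70b was lower too (-2.11, adjusted p = 4.78e-06), while RPA70a was higher by 0.44 (adjusted p = 0.00893). RBR1, a retinoblastoma homologue that restrains S-phase genes, was lower (-1.43, adjusted p = 5.07e-05). So were the CDK inhibitors KRP1, KRP5 and KRP6 (-0.39 to -0.81), the polymerase subunit POLD2 (-0.58) and the flap nuclease FEN1A (-0.81), whereas FEN1B was higher (0.64, adjusted p = 0.00192). RBR2, the other retinoblastoma homologue listed, did not pass (0.11, adjusted p = 0.543). EL2, KRP4, POLD1, RPA14, RPA32-2, RPA32-3 and RPA70c did not pass either.

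SMR1, a CDK inhibitor of the SIAMESE-related family, was higher. It read 1079 and 276 (T) and 424.8 and 1671.3 (NT) in P-deficient soil, against 186.8 and 119.8 (T) and 135.5 and 134.1 (NT) in P-fertilised soil. Every array of P-deficient soil exceeded every array of P-fertilised soil, although replicates there lay far apart (2.04 ± 0.48, adjusted p = 0.00808).

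Some markers of root parts and growth zones were lower as well, but most root markers did not pass. Of 5 root marker genes tested 2 were lower and 0 higher, against 30.4% and 27.4% of all genes. CASP1, which builds the Casparian strip of the endodermis, read 10.7 to 18.4 in P-deficient soil and 429.1 to 612.2 in P-fertilised soil (-3.54, adjusted p = 5.11e-07). The manganese transporter NRAMP5 was lower too (-1.67, adjusted p = 7.83e-05) but read 115.9 or more on every array, and SCR1, SHR1 and WOX11 did not pass. Of 12 meristem and growth names tested 6 (50%) were lower and 0 higher, against 30.4% and 27.4% of all genes. The other 6 did not pass, with GRF3, GRF4, GRF5 and GRF8 at 0.03 to 0.22 and GRF11 and OSH1 each at -0.27. Names called lower included QHB of the quiescent centre at 19.7 to 33 against 58.2 to 79.5 (-0.79, adjusted p = 0.000237). The growth-regulating factors GRF6 (-2.01) and GRF7 (-1.65) were among them too. GIF1 was lower (-2.60) and counts among the 6, but in rice the name also belongs to a cell-wall invertase. Which of these genes its probe set reads was not checked. Of 6 green-tissue names tested 1 was lower and 1 higher, against the same 30.4% and 27.4% of all genes. T replicate 2 in P-fertilised soil stood apart for 3 of the listed names: it read 397.3 for the chlorophyll-binding protein gene CAB2R (6 to 67.1 elsewhere), 27.5 for LHCP (1.4 to 3.8 elsewhere) and 160.2 for the meristem gene OSH1 (8.5 to 55.2 elsewhere). It did not stand apart from all other arrays for PSA, PSAG, PSAH, PSB28, RBCS or RBCS1. For PSAH, though, it read 54.2, against 9.8 to 22.3 on the other arrays of P-fertilised soil and 29.4 to 60.6 in P-deficient soil. The part of root zone or tissue makeup in the cell cycle differences was not tested.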

How the data were processed

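Intensity values, 1 per probe set and array, were deposited by the authors for 57381 probe sets on 8 arrays. The submitters' processing notes name GCOS, Affymetrix's array software, with settings not given in the sources used here. Values were taken as log2(value + 32), and the 40% of probe sets with the lowest mean were left out, which kept 34316. A limma model of the 4 group means (limma 3.58.1, R 4.3.3, eBayes with trend, 4 residual degrees of freedom) was used, with Benjamini-Hochberg adjustment over all probe sets kept. A gene was read by its probe set with the highest mean signal. Genes were named through the platform annotation and RefSeq (ASM3414082v1), used for names and gene order alone. The members, classes and lists were chosen with earlier results of these data known. Named genes are up to 3 per class with the smallest soil p, the called member furthest the opposite way, and the 3 with the smallest p per genotype comparison. All others are given to account for every member, or were chosen after their values were seen. No detection calls were used, and array number limits the precision. Whether replicate numbers paired the arrays is not known, and the main model used no pairing. Deviations of same-numbered T and NT arrays correlated at -0.26 (P-deficient) and 0.21 (P-fertilised). With so few arrays per group, these values cannot decide whether same-numbered arrays shared a batch. Alternatives changed the pseudocount, normalization, filter, block, covariate, probe sets and arrays.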

Additional observations from a re-analysis of the deposited data

How the results depend on the processing

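Over all alternatives the number of members called stayed at 33 to 42 for soil over both genotypes, 25 to 32 in NT and 26 to 36 in T, and no named result reversed. With a replicate block the counts were 36, 29 and 33, and crossing the numbers in P-deficient soil, an alternative added after seeing the data, gave 41, 31 and 35. Leaving out both T arrays of P-deficient soil, also added later, gave 29 in NT. The shares of all genes called were not counted for the alternatives, so these counts have no background beside them. With 1 array left out, 0 to 1 members were called between genotypes over both soils, 0 to 1 in P-deficient soil and 0 to 1 for the interaction, in each case H2B.7 without T replicate 2 of P-deficient soil.

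The median difference over members moved more, and kept its sign. For soil over both genotypes it was -1.06 with a pseudocount of 1, -0.37 with 100, -0.48 with the lowest 60% of probe sets left out, and -0.80 to -0.55 with 1 array left out. In NT it was -0.97 with a pseudocount of 1, -0.56 with the GAPDH ratio as a covariate, -0.67 with the mean of all probe sets of a gene, and -0.67 to -0.29 with 1 array left out. In T it was -0.997 with a pseudocount of 1, -0.40 with 100, -0.68 after quantile normalization, -0.61 with the lowest 60% left out, -0.67 with the covariate, and -0.85 to -0.70 with 1 array left out. A larger pseudocount shrinks every difference by construction, and the cause of the other moves was not tested. The B-type cyclins, CDKB2-1, CDKA-1, CDKA-2, MCM2 to MCM7, PCNA, ORC1, ORC3, ORC4 and the P-type cyclins passed for soil over both genotypes in every alternative in which they were tested. In NT alone ORC1 was lost with a pseudocount of 1 and ORC4 without replicate 1 of P-fertilised soil. Signals near the bottom of the scale limit what can be said of the size of a difference, since no detection calls were used.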

Other observations

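Second probe sets of some CDK genes, chosen after their values were seen, did not follow the first in every comparison. CDKF-4 on its second probe set read 0.9 and 7.8 (T) and 55.2 and 36.8 (NT) in P-deficient soil, against 56.2 and 100.2 (T) and 111.4 and 114.3 (NT) in P-fertilised soil. It was lower in P-deficient soil by -1.24 (adjusted p = 0.000282), as was the first probe set (-0.30, adjusted p = 0.043). On the second, T minus NT in that soil was -1.10 and did not pass (adjusted p = 0.141). On the first probe set of CDKF-4 the genotype difference there was 0.14 (adjusted p = 0.721). CDKE-1 on its second probe set read 282 and 314.5 (T) and 239.9 and 235.1 (NT) in P-deficient soil, so T lay above NT there and below NT on the first. That probe set was higher in P-deficient soil (0.45, adjusted p = 0.00776). T arrays from P-deficient soil are those with GAPDH ratios of 198 and 3.05, and the part of RNA integrity in these values was not tested.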
